A study of Mus musculus with 6 samples.

Results

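Creatine kinases and the genes that supply cells with creatine were followed in mature CD4 SP thymocytes with and without the histone demethylases Jmjd3 and Utx. The group held 7 genes, *Ckb*, *Ckm*, *Ckmt1*, *Ckmt2*, *Gamt*, *Gatm* and *Slc6a8*, of 19752 genes with a row of their own in the deposited array table. They were taken by symbol from the annotation of the array. Where a gene had several rows, the row with the highest mean over all 6 arrays was to be kept, but each of the 7 genes had 1 row. The group was put forward with the decrease of *Ckb* in these arrays known, so the values of *Ckb* are given as a description, without a test.

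RNA came from thymocytes sorted as Vα2hi CD24lo CD4 SP cells from OT-II mice, whose TCR transgene fixes the specificity of the T-cell receptor in both groups. The dKO cells (3 arrays) carried floxed *Jmjd3* and *Utx* alleles, labelled Jmd3f/f-utxf/f, and Cre expressed under *Cd4* control, which becomes active in CD4+CD8+ (DP) precursors and removes exons for the catalytic domain. The wild-type cells (3 arrays) came from Cre-negative animals, for the study described in the Methods as littermates with floxed *Jmjd3* or *Utx* alleles. The Methods also state that mice were female unless noted. The labels call the arrays of a genotype biological replicates. They do not say whether each stands for a separate mouse, and the Methods give an age range for the mice of the study but no age per array. The p-values refer to the spread between these arrays.

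Creatine kinases move a phosphate group between ATP and creatine, which gives a cell a fast reserve of ATP where demand changes quickly. *Ckb* and *Ckm* encode the cytosolic brain-type and muscle-type enzymes, and *Ckmt1* and *Ckmt2* the mitochondrial enzymes, ubiquitous and sarcomeric. Creatine is made from arginine and glycine by the enzymes that *Gatm* and *Gamt* encode, mostly in kidney and liver, and is carried into other cells by the transporter that *Slc6a8* encodes.

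The promoters of the cytosolic enzymes are shown because the gene for one of them was the only member with a large difference between genotypes. Each is the stretch of 250 bases before the start of transcription in RefSeq (build GRCm38.p6), read on the strand of the gene. The *Ckb* stretch lies at chr12:111672339-111672588 on the minus strand and the *Ckm* stretch at chr7:19410844-19411093 on the plus strand. Capitals mark CCAAT boxes (CCAAT) and TATA-type boxes (TATANA, where N is any base), searched on both strands, where matches may overlap.
Ckb: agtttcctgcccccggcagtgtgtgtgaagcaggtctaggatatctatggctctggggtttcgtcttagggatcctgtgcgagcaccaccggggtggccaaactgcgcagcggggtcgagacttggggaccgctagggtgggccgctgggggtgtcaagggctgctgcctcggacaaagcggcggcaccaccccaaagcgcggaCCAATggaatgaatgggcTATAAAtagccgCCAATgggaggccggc
Ckm: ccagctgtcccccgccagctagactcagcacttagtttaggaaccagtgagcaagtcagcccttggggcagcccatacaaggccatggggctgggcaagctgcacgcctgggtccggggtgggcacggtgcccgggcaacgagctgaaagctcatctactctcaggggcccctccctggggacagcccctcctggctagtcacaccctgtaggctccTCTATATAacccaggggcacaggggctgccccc
In *Ckb*, CCAAT boxes began 46 and 16 bases before the start, and a TATA-type box between them began 28 bases before it. *Ckm* held no CCAAT box, and 2 overlapping TATA-type matches that began 33 and 31 bases before its start. Of 32851 windows of the same length in the RefSeq table, 33.8% held a CCAAT box and 22.6% a TATA-type box, and 2.18% held at least 2 of the former with at least 1 of the latter. *Ckb* had 16 CpG dinucleotides in this stretch, *Ckm* 6, *Gamt* 12, *Gatm* 17 and *Ckmt2* 2, and the starts of *Ckmt1* had 4 and 9, against a median of 6 over all windows. RefSeq windows matched 6 of the 7 genes. These matches are a description of the sequence, and no binding was measured here.

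The arrays gave log2 values whose medians lay between 6.27 and 6.32, with first quartiles between 4.97 and 5.01. The correlation over genes was 0.998 to 0.999 between arrays of a genotype and 0.991 to 0.993 between genotypes. *Kdm6a*, which encodes Utx, kept 62.9% of its wild-type signal in dKO cells (adjusted p = 2.6e-05 from limma), and *Kdm6b*, which encodes Jmjd3, 93.8% (adjusted p = 0.32), in rows that need not lie in the deleted exons. Of 9 T-cell markers measured, the dimmest had a mean of 10.67, far above the array medians. By limma, 2 of the 9 were lower in dKO cells, 1 was higher and 6 did not pass. With 1 array left out, 1 was lower and 1 or 2 were higher.

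*Ckb* signal in dKO cells was 22.4% of that in wild-type cells. Its log2 values were 9.86, 10.00 and 10.13 on the wild-type arrays and 7.77, 7.86 and 7.89 on the dKO arrays. All 3 dKO values lay more than a whole log2 unit below all 3 wild-type values, and both groups lay above the array medians, so that this difference was measured well away from the bottom of the range. The wild-type mean was 10.00 ± 0.13 (SD, n = 3) and the dKO mean 7.84 ± 0.06 (SD, n = 3), a difference of -2.16 (95% interval of the limma fit, -2.32 to -2.00). This interval takes no account of the decrease being known when *Ckb* was put forward, and it is not a test. The difference ranked 12 among the decreases of all 19752 genes. With single arrays left out in turn, it ranged from -2.23 to -2.09.

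The muscle-type gene, *Ckm*, had log2 values of 6.63, 6.69 and 6.75 on the wild-type arrays and of 6.78, 6.97 and 6.75 on the dKO arrays. The highest wild-type value and the lowest dKO value agree to 2 decimals, and the groups did not overlap by a margin smaller than that. The mean of *Ckm* was 6.69 ± 0.06 (SD, n = 3) on the former arrays and 6.83 ± 0.12 (SD, n = 3) on the latter. The difference of 0.14 (95% interval -0.0023 to 0.29) did not pass the threshold of 0.05 in limma (adjusted p = 0.16). The size of this difference was close to the spread between arrays. Means of the 18 muscle markers, taken up below, lay between 4.84 and 7.11, a range that holds both means of *Ckm*. Whether the signal of *Ckm* exceeds background was not tested. Groups that do not overlap were found for 2 of the 7 genes, *Ckb* and *Ckm*, and for 37.7% of all genes.

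The mitochondrial enzymes gave values near the first quartile of the arrays, where background limits what a difference can show. *Ckmt1* had log2 values of 5.17, 5.18 and 5.25 in wild-type and of 5.12, 5.23 and 5.05 in dKO cells. The groups overlapped, with a difference of -0.07 (95% interval -0.19 to 0.06, adjusted p = 0.46 from limma). *Ckmt2* had values of 4.96, 5.16 and 5.17 in wild-type and of 5.07, 5.06 and 5.04 in dKO cells. The dKO values lay within the wild-type range, and the difference was -0.04 (95% interval -0.18 to 0.09, adjusted p = 0.70).

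**Figure D1:**
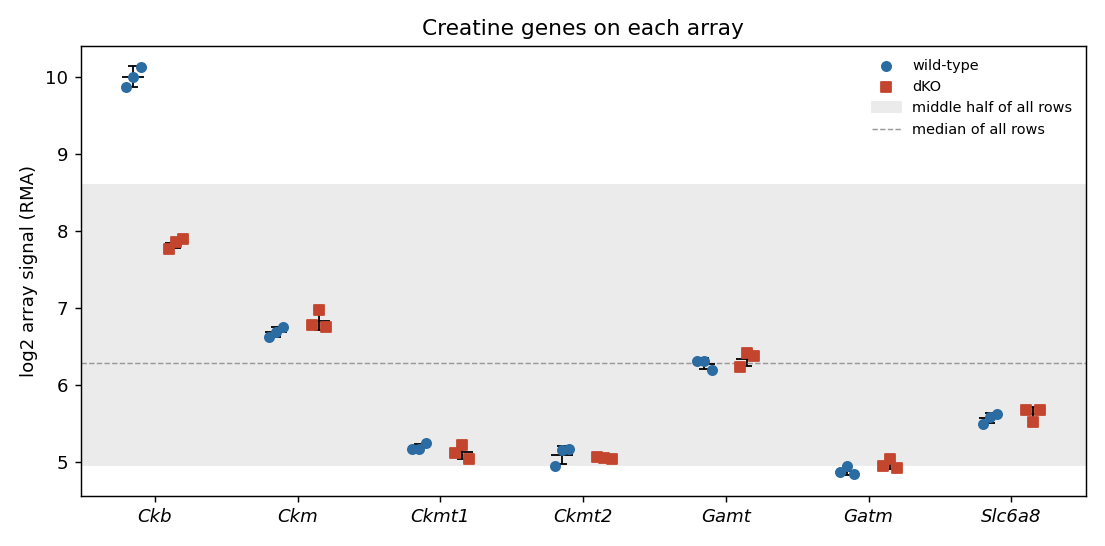
Log2 array signal (vertical axis) of the 7 creatine genes (horizontal axis) on each wild-type (blue circles) and dKO (red squares) array, with the mean and SD of each group in black (n = 3). The grey band spans the first to the third quartile of all rows and the dashed line is their median. *Ckb* lies between 9.86 and 10.13 in wild-type and between 7.77 and 7.89 in dKO cells, while the groups of the other genes lie close together.

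Creatine synthesis takes the action of both remaining enzymes in turn. *Gatm*, which encodes the enzyme that forms guanidinoacetate, had log2 values of 4.87, 4.96 and 4.85 in wild-type and of 4.96, 5.04 and 4.93 in dKO cells, around or below the first quartile of the arrays. The difference was 0.08 (95% interval -0.03 to 0.20, adjusted p = 0.32 from limma). *Gamt*, which encodes the methyltransferase that completes creatine, had values of 6.32, 6.32 and 6.20 in wild-type and of 6.24, 6.42 and 6.38 in dKO cells, close to the array medians. Its groups overlapped (difference 0.07, 95% interval -0.07 to 0.20, adjusted p = 0.50).

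*Slc6a8*, the X-linked gene of the creatine transporter, had log2 values of 5.50, 5.59 and 5.63 in wild-type and of 5.68, 5.52 and 5.68 in dKO cells. Its groups overlapped, with a difference of 0.05 (95% interval -0.08 to 0.19, adjusted p = 0.61 from limma). Of the 6 genes other than *Ckb*, limma called 0 at an adjusted p under 0.05 and 0 at an unadjusted p under 0.05. In the same fit 10.0% of all genes were lower, 13.1% were higher and 23.1% changed in either direction at the adjusted threshold, and 33.0% had an unadjusted p under 0.05. The intervals of these 6 differences reached from -0.19 to 0.29 at the widest. They describe the measured signal, which background can compress. Wild-type means of the 6 genes ran from 4.89 (*Gatm*) to 6.69 (*Ckm*), beside first quartiles of 4.97 to 5.01. A decrease of the size of that of *Ckb* would have taken each of them below these quartiles. The intervals therefore cannot exclude such a decrease of the transcripts.

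**Figure D2:**
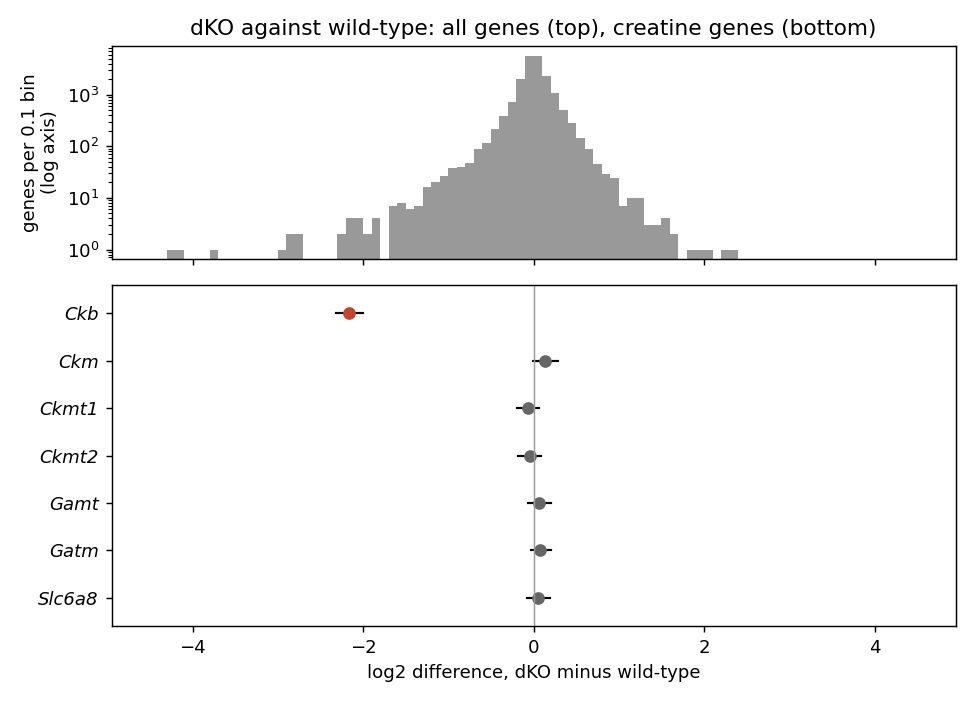
The upper panel counts all 19752 genes by their log2 difference between dKO and wild-type cells (horizontal axis, shared) on a log vertical axis, in bins of 0.1. The lower panel gives the difference of each creatine gene (points) with its 95% interval from limma (lines), which for *Ckb* is a description and not a test. *Ckb* stands at -2.16, in the thin left tail of the upper panel, and the other 6 genes lie between -0.07 and 0.14.

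Values of genes listed as markers of other cell types, of T-cell subsets and of DP precursors were set beside these genes. All 11 measured markers of regulatory T-cells were lower in dKO cells by limma, by -1.29 to -0.42 on the log2 scale, with *Foxp3*, the transcription factor gene of that lineage, at -0.89 (adjusted p = 1.6e-06). The call on *Gpr83* was lost without any 1 of 3 arrays (adjusted p = 0.051 to 0.07), which left 10 of the 11. Their summed signal, on a linear scale, was 4435 to 4507 in wild-type and 2463 to 2668 in dKO cells, and none had a mean under 6.14. They thus moved with *Ckb* between genotypes. The decrease of *Ckb* was larger than that of each of them, but *Ckb* was put forward with its decrease known. The part of these markers in the decrease of *Ckb* was not tested. Fewer cells of a type and less RNA per cell cannot be told apart in sorted bulk samples. Of 8 DP markers, 3 were higher and 2 were lower, and their summed signal was 1620 to 1875 in wild-type and 2458 to 2710 in dKO cells, a difference whose part was not tested either. *Dntt* was higher by 1.52, at 288% of its wild-type signal (adjusted p = 1.4e-05 from limma). *Cd8b1* was higher by 0.54 (adjusted p = 3.8e-05) and *Cd1d1* by 0.44 (adjusted p = 0.0019). The count of 3 higher held with each array left out in turn. The 2 DP markers called lower were *Rag1* and *Arpp21*, and none was called lower without wild-type replicate 1, wild-type replicate 2, dKO replicate 2 or dKO replicate 3 (adjusted p = 0.07 to 0.15 for *Rag1* and 0.073 to 0.084 for *Arpp21*), while 3 were lower without wild-type replicate 3.

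In the other marker lists, limma called a smaller share of genes. Single genes of these lists differed as much as some markers named above. The B-cell marker *Cd79b* was at -0.63 (adjusted p = 1.2e-05 from limma) and the macrophage marker *Lyz2* at 0.81 (adjusted p = 0.043). None of the 18 muscle markers, the tissue in which *Ckm* and *Ckmt2* are best known, passed the limma test (0 also at an unadjusted p under 0.05), and their summed signal was 1188 to 1264 in wild-type and 1200 to 1252 in dKO cells. Thymic epithelial markers summed to 957.7 to 967.3 in wild-type and to 900.7 to 921.9 in dKO cells (2 of 11 lower and 1 higher, or 2 higher without wild-type replicate 3), and B-cell markers to 310.1 to 325.5 and to 260.7 to 263 (1 of 6 lower). Macrophage and dendritic cell markers summed to 632.5 to 668.5 and to 630.4 to 830.8 (1 of 12 lower and 1 higher, the latter a call on *Lyz2* that was lost without any 1 of 5 arrays, at adjusted p = 0.067 to 0.13, while 2 were higher without dKO replicate 3). None of 4 erythroid markers passed in limma (0 also at an unadjusted p under 0.05). No marker is at 0 on these arrays, whose lowest values reflect background.

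Mitochondrial creatine kinases work next to the carriers that exchange ADP and ATP across the inner membrane and the VDAC channels of the outer membrane. Of this exchange, 4 of the 7 genes were higher in dKO cells and 3 did not pass, with a median difference of 0.16 against 0.01 for all genes. *Slc25a4*, which encodes an ADP/ATP carrier, had log2 values of 8.99, 8.96 and 8.93 in wild-type and of 9.89, 9.86 and 9.92 in dKO cells. The groups were far apart, and the dKO signal was 191% of that in wild-type cells (difference 0.93, standard error 0.05, adjusted p = 6.7e-07 from limma). The channel genes *Vdac3* and *Vdac1* were higher by 0.35 (adjusted p = 0.0016) and 0.27 (adjusted p = 0.0046), and *Slc25a3*, of the phosphate carrier, by 0.16 (adjusted p = 0.027). The call on *Slc25a3* was lost without any 1 of 5 arrays (adjusted p = 0.059 to 0.081). *Slc25a5*, the other ADP/ATP carrier gene with a bright row, had a difference of 0.04 (95% interval -0.07 to 0.14).

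Adenylate kinases and nucleoside diphosphate kinases also pass phosphate groups between nucleotides. Of 13 measured, 3 were higher, 2 were lower and 8 did not pass in dKO cells. *Nme4*, of a mitochondrial nucleoside diphosphate kinase, had log2 values of 6.99, 6.98 and 7.08 in wild-type and of 6.49, 6.43 and 6.38 in dKO cells, 66.8% of the wild-type signal (difference -0.58, adjusted p = 3.4e-05 from limma). *Nme6*, another member of that family, was higher by 0.50 (adjusted p = 3.9e-04), and *Ak3*, an adenylate kinase of the mitochondrial matrix, by 0.35 (adjusted p = 0.0017). The dim *Ak8* was lower by -0.20 (adjusted p = 0.011). *Ak4* was higher by 0.27 (adjusted p = 0.017), a call lost without wild-type replicate 1 (adjusted p = 0.058) or dKO replicate 2 (adjusted p = 0.073).

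AMPK senses the fall in ATP that creatine phosphate buffers. Of 11 genes of its subunits, of upstream kinases and of their partner proteins, 4 were higher and 2 were lower in dKO cells. *Prkag1*, of the nucleotide-binding γ1 subunit, kept 76.7% of its wild-type signal (10.95 ± 0.01 against 10.57 ± 0.05, SD, n = 3 arrays each, adjusted p = 2.5e-04 from limma). *Prkab2*, of a β subunit, was lower by -0.20 (adjusted p = 0.014), and *Stk11*, of the upstream kinase Lkb1, was higher by 0.19 (adjusted p = 0.011). The other 3 genes called higher were *Strada*, *Prkab1* and *Prkaa1*, at 0.19, 0.18 and 0.17. These 3 calls were lost after cyclic loess normalization (adjusted p = 0.052, 0.052 and 0.057), and the count of genes higher was 1 without wild-type replicate 2, wild-type replicate 3 or dKO replicate 2, and 2 without dKO replicate 3.

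Among genes that supply or spend arginine and glycine, 4 of 20 were higher, 1 was lower and 15 did not pass. *Oat*, which encodes ornithine aminotransferase, had log2 values of 8.86, 8.98 and 8.92 in wild-type and of 9.82, 9.74 and 9.69 in dKO cells. This amounted to 178% of the wild-type signal (difference 0.83, standard error 0.05, adjusted p = 4.7e-06 from limma), with a gap between the groups wider than either of them. *Shmt2*, of the mitochondrial enzyme that converts serine to glycine, was higher by 0.46 (adjusted p = 2.7e-04), and *Odc1*, of the first enzyme of polyamine synthesis from ornithine, by 0.37 (adjusted p = 0.0057). *Azin1*, whose product holds off the inhibitor of that enzyme, was lower by -0.50 (adjusted p = 3.9e-05). *Dld*, of a subunit shared by the glycine cleavage system and other dehydrogenases, was higher by 0.18 (adjusted p = 0.041), a call lost without any 1 of 4 arrays (adjusted p = 0.078 to 0.16).

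The methyl group of creatine comes from S-adenosylmethionine. Of 14 genes of the methionine cycle, 3 were higher and 11 did not pass, with a median difference of 0.01. *Mtrr*, which encodes the enzyme that reactivates methionine synthase, had log2 values of 7.78, 7.76 and 7.73 in wild-type and of 8.20, 8.20 and 8.18 in dKO cells (difference 0.44, adjusted p = 7.4e-05 from limma). The arrays of a genotype differed by far less than the genotypes. *Ahcyl2* was higher by 0.25 (adjusted p = 0.0035), and *Cth*, of cystathionine γ-lyase, by 0.16 (adjusted p = 0.038), a call lost without any 1 of the 6 arrays (adjusted p = 0.055 to 0.12).

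In the SLC6 family, to which the creatine transporter belongs, and with *Slc16a12*, of another creatine transporter, 1 of 19 genes was lower and 18 did not pass. The gene called lower was *Slc6a18* at -0.16 (adjusted p = 0.033 from limma). This call did not hold without any 1 of 4 arrays (adjusted p = 0.073 to 0.11). Most of the family was dim, with 18 of 19 genes under the median of all genes. *Slc16a12* had a difference of 0.03 (95% interval -0.10 to 0.16), and *Slc6a6*, the taurine transporter gene and the exception in brightness, of -0.03 (95% interval -0.14 to 0.08). Over the 6 lists, 84 genes were measured, of which 7.14% were lower and 21.4% were higher, beside 10.0% and 13.1% of all genes. Among the 9876 brightest genes, 1887 were lower and 2634 higher. The part of brightness in the shares of the lists was not tested. *Ckb*, put forward with its decrease known, had a larger difference than each gene of these lists.

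**Figure D3:**
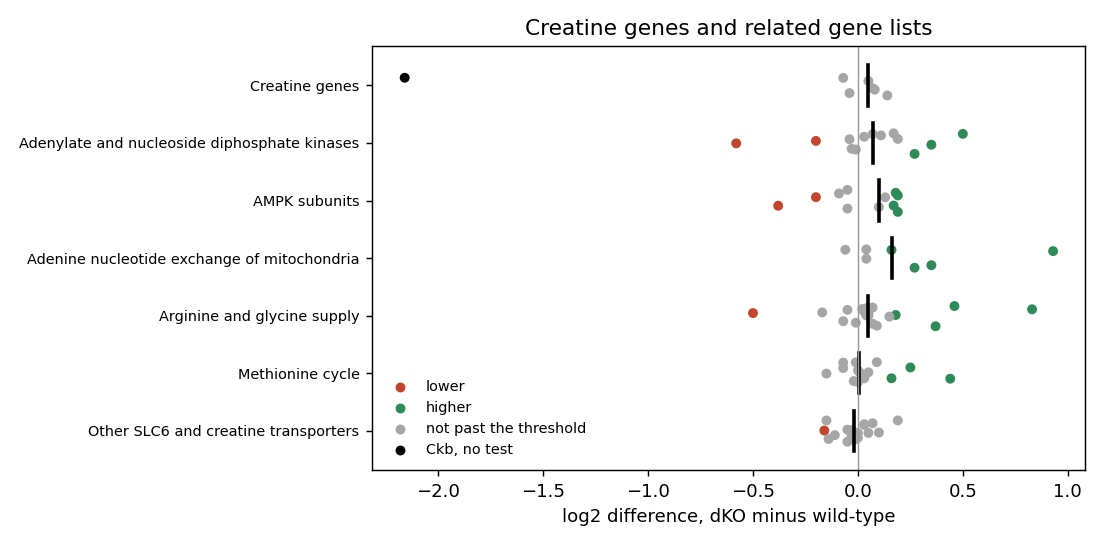
Log2 difference between dKO and wild-type cells (horizontal axis) of each gene (points) of the creatine group and of 6 related lists (rows), spread vertically for legibility. Red and green points were lower and higher at an adjusted p under 0.05 from limma, grey points did not pass, *Ckb* is black, and black bars are medians. *Ckb* lies at -2.16, and the list genes lie between -0.58 (*Nme4*) and 0.93 (*Slc25a4*).

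The nearest measured genes on each side of the creatine genes, by gene order and without regard to distance, are given as a description. Whether differences extended along the chromosome was not tested. On chromosome 12, the 3 measured genes on each side of *Ckb* had small differences of both signs. *Mark3*, *Trmt61a* and *Coa8* had values of -0.19, -0.18 and -0.26, *Eif5* and *Bag5* of 0.18 and 0.25, and *Gm266* of -0.06. Of these, *Mark3* (adjusted p = 0.018 from limma) and *Coa8* (0.024) were called lower and *Eif5* (0.012) and *Bag5* (0.028) higher, and each of these calls was lost without at least 1 array (*Eif5* without wild-type replicate 2 at adjusted p = 0.057, *Mark3* without any 1 of 3 arrays at 0.051 to 0.07, *Coa8* of 4 at 0.071 to 0.093 and *Bag5* of 2 at 0.08 to 0.093). The largest of these 6 differences was far smaller than that of *Ckb* itself, which was put forward with its decrease known.

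Over the 7 genes, 42 neighbours were measured, of which 11 were higher, 4 were lower and 27 did not pass. In the same fit, 13.1% of all genes were higher and 10.0% were lower. With 1 array left out, the neighbours called lower numbered 1 without dKO replicate 2, 2 without wild-type replicate 2 and otherwise 3 to 5. The neighbours called higher numbered 7 without wild-type replicate 2 and otherwise 8 or 9. Beside those next to *Ckb*, the calls on *Mark4*, *Ppip5k1*, *Ndufs7* and *Zcchc9* were lost without any 1 of 5, 5, 6 and 3 arrays (adjusted p = 0.095 to 0.17, 0.05 to 0.1, 0.059 to 0.12 and 0.058 to 0.088). Near *Gatm* on chromosome 2, *Slc28a2* had log2 values of 8.82, 8.72 and 8.82 in wild-type and of 9.61, 9.41 and 9.42 in dKO cells (difference 0.69, adjusted p = 3.9e-05 from limma). Its neighbour *Slc28a2b* was higher by 0.85 (adjusted p = 5.3e-05). These genes, of concentrative nucleoside transporters, are close copies of each other, so their probes may share signal. On the other side of *Gatm*, *Slc30a4*, of a zinc transporter, was higher by 0.39 (adjusted p = 0.0027), while *AA467197*, the gene next to *Gatm*, had a difference of -0.14 (adjusted p = 0.12). *Pnck*, a neighbour of *Slc6a8* that encodes a calmodulin-dependent kinase, had log2 values of 6.17, 6.54 and 6.41 in wild-type and of 6.99, 7.31 and 7.10 in dKO cells (difference 0.76, adjusted p = 4.6e-04). *Dazap1*, next to *Gamt*, was lower by -0.35 (adjusted p = 3.2e-04). *Gatm*, *Slc6a8* and *Gamt* themselves did not pass.

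**Figure D4:**
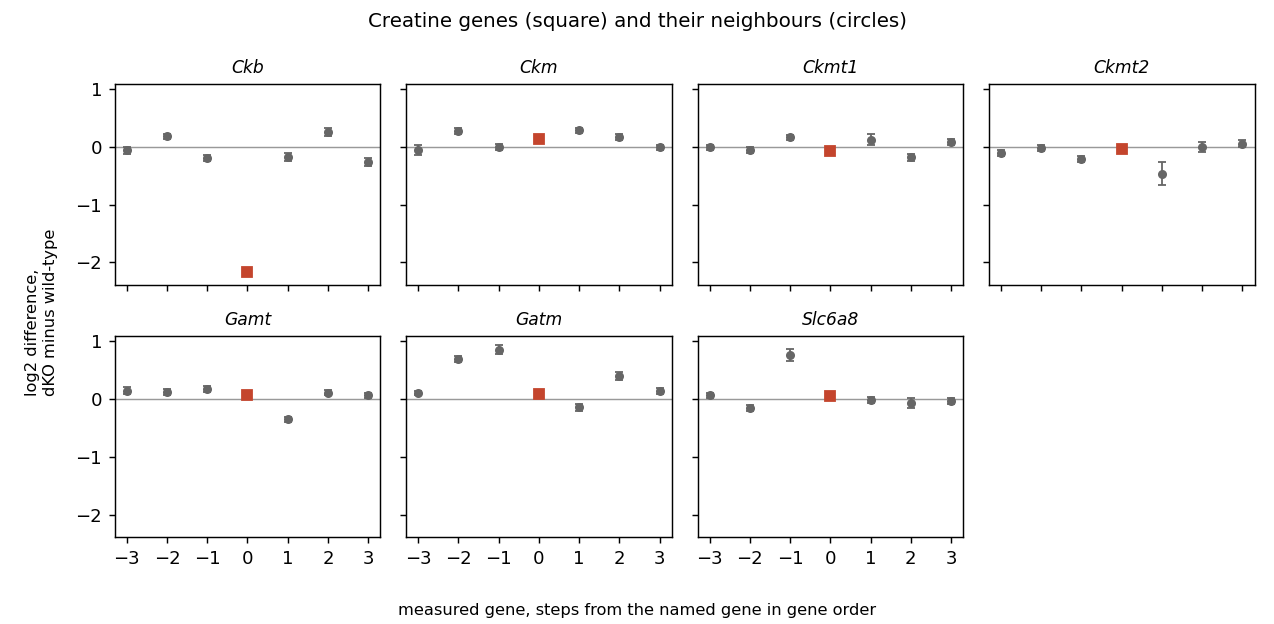
Log2 difference between dKO and wild-type cells (vertical axis, with the standard error) of each creatine gene (red square) and of the 3 measured genes on each side (grey circles), by their order along the chromosome (horizontal axis, in genes). *Ckb* lies at -2.16 between neighbours from -0.26 to 0.25, and *Gatm* at 0.08 beside neighbours at 0.69 and 0.85.

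The genes whose values over the 6 arrays lay nearest to those of *Ckb*, after subtraction of each gene's mean, were *Dnah8*, *Sytl2*, *A530021J07Rik*, *Ubash3b* and *Fry*. Their root mean square differences from *Ckb* were 0.08, 0.08, 0.09, 0.10 and 0.13 on the log2 scale. They were chosen by this likeness, so their values are a description. *Dnah8* had log2 values of 9.48, 9.49 and 9.55 in wild-type and of 7.28, 7.26 and 7.44 in dKO cells, a difference of -2.18 that ranked 11, directly before that of *Ckb*. *Ubash3b*, of a phosphatase that restrains TCR signalling, had a difference of -2.23, *Sytl2* of -2.10, *A530021J07Rik* of -2.12 and *Fry* of -2.03. With 3 arrays of each genotype, this likeness mostly reflects a difference of nearly the same size between the genotypes.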

How the data were processed

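RNA was hybridized to 6 Affymetrix Mouse Gene 1.0 ST arrays, as the Methods state (the series' own design text gives another type). The deposited log2 values were made by the authors in Partek from the scanner files. RMA, given in the processing notes of the submitters, corrects background, evens out the distributions of the arrays and gives 1 value per row. The sources used here give no versions. A change shared by most genes would be hidden, differences of dim genes are compressed, and the number of arrays limits the precision.

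The table held 25254 rows, 21496 of them with a single gene symbol, 1565 with more than 1 and 2193 without one. Current symbols were taken through Entrez identifiers from a RefSeq table (GRCm38.p6), which held 21415 of the rows with 1 symbol and also gave the order of neighbours. The brightest row of each gene was kept, which left 19752 genes. Genotypes were compared with limma 3.58.1 in R 4.3.3, without a filter. P-values were adjusted over all genes by the Benjamini-Hochberg method and called at 0.05. The test was checked on simulated data. Plots were made with matplotlib 3.10.9 in Python 3.11.15.

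The genes and lists were chosen with earlier results of these data known. Named genes were the 7 members, up to 4 genes of each list with the smallest p, the 3 measured neighbours on each side, the 5 genes nearest to *Ckb*, *Kdm6a* and *Kdm6b*. *Ak4*, *Prkab1*, *Prkaa1*, *Dld*, *Slc25a5*, *Slc6a6*, *Slc16a12* and the markers *Foxp3*, *Gpr83*, *Il2ra*, *Dntt*, *Cd8b1*, *Cd1d1*, *Rag1*, *Arpp21*, *Cd79b* and *Lyz2* were added once their values were known. Some genes of the lists were not analysed here. Alternatives were further quantile or cyclic loess normalization, the 14814 or 9876 brightest genes, averaging the rows of a gene, robust variances with an intensity trend, a block for the replicate number, Student's t-test, and leaving out each array in turn.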

Additional observations from a re-analysis of the deposited data

How the results depend on the processing

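Each result was computed under up to 14 alternatives, fewer for genes that a filter on brightness removed. For the counts of markers and of neighbours, *Kdm6a*, *Kdm6b* and the genes nearest to *Ckb*, they were chosen after seeing the data. Sums of marker signal were computed from the deposited values alone. The difference of *Ckb* ranged from -2.23 to -2.09 with 1 array left out and from -2.21 to -2.16 under the other alternatives. The differences of the other 6 creatine genes kept their sign and did not pass the threshold under any alternative in which they were tested, with adjusted p from 0.10 (*Ckm*) to 0.97 (*Ckmt2*). Among all genes, limma called 1976 lower and 2587 higher (56.7% of calls higher), and 2328 lower and 2222 higher (48.8%) after cyclic loess normalization, so that the balance between directions depended on the normalization. By Student's t-test these counts were 1173 and 1392. It called 11 genes of the 6 lists higher, against 18 by limma. Of the 6 creatine genes other than *Ckb* it called 0, and 0 at an unadjusted p under 0.05, which 29.2% of all genes reached. The calls on *Odc1* (adjusted p = 0.096), *Slc30a4* (0.067), *Cd1d1* (0.063), *Il2ra* (0.1) and *Gpr83* (0.18) were lost by this test. Also lost by it were *Ak4*, *Prkaa1*, *Prkab1*, *Strada*, *Dld*, *Cth*, *Slc6a18* and *Bag5*. So were *Coa8*, *Mark4*, *Zcchc9*, *Ndufs7*, *Lyz2*, *Rag1* and *Arpp21*. Adjusted p in Student's t-test was 0.051 to 0.27 for the genes of these last lists, whose calls were each also lost without at least 1 array. Of 18 muscle markers it called 0, and 2 at an unadjusted p under 0.05, and of 4 erythroid markers 0 and 0. With 1 array left out, the genes lower numbered 1496 to 1855 and those higher 1901 to 2259, and in the lists 5 to 6 were lower and 12 to 15 higher.

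Arrays with the same replicate number deviated together only weakly (correlations of 0.099, 0.024 and 0.07), beside -0.098 to 0.04 for arrays with different numbers. The dKO replicate 2 correlated better with wild-type replicate 3 (0.04) than with wild-type replicate 2. The numbers were not taken as pairs, though these correlations do not exclude a pairing. With the replicate number as a block, 1970 genes were lower and 2574 higher, and *Ckb* differed by -2.16. *Ckmt1*, *Ckmt2* and *Gatm* were close to the first quartile of all rows, where background limits a measured difference.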
